A study of Mus musculus with 4 samples.

Results

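The genes described here are 45 genes of mitosis, chosen by name: regulators of the passage from G2 into mitosis, kinesin motors of the spindle, proteins of the centromere and kinetochore, the spindle assembly checkpoint, condensin and the machinery of cytokinesis. All 45 were among the 24411 gene symbols of the deposited tables, and all 45 were among the 12617 genes with enough reads to be tested. They were measured by RNA sequencing in B cells of mouse bone marrow, sorted for B220, a form of the surface phosphatase CD45 that marks the B lineage. The design sets 2 libraries from wildtype mice, called WT1 and WT2, against 2 libraries labelled as overexpressing Arid5b, called OE1 and OE2. Arid5b binds DNA through an ARID domain, which prefers AT-rich sites. How Arid5b was raised, in which cells, and the strain, age and sex of the mice are not given in the sources used here. Nor do the labels say that the libraries of a group came from separate mice, so p-values measure only the spread between these libraries.

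As a cell enters mitosis, cyclin B and its kinase Cdk1 set off chromosome condensation and the assembly of a spindle of microtubules. Kinetochores, built on centromeres marked by the histone variant Cenpa, attach each chromosome to the spindle, and the checkpoint holds the cell until all are attached. The anaphase promoting complex, a ubiquitin ligase, then has cyclin B and the inhibitor of separase degraded, sister chromatids part, and the central spindle directs cytokinesis. Most of these genes are transcribed in G2 and mitosis and are low in resting cells. In bone marrow, the large pre-B cells and late pro-B cells divide, while small pre-B cells and recirculating mature B cells rest.

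The libraries held between 14196665 and 20356404 reads assigned to genes, of which the ribosomal RNA precursor Rn45s took between 25.69% and 30.52%. The targeted gene stood at 149 CPM (reads in 1000000 assigned reads) in WT1, 174 CPM in WT2, 3804 CPM in OE1 and 136 CPM in OE2. OE2 therefore carries the label without a raised level of Arid5b, and each library of that group is given on its own below. WT1 differed from the other 3 libraries in the X-linked Xist (24 reads against 68540 to 132008) and the Y-linked Ddx3y (3260 reads against 0 or 1). The sorted cells carried B lineage markers in every library, with 8 of 8 such genes detected. Their summed levels were 4808 and 5355 CPM in wildtype, 3288 CPM in OE1 and 5281 CPM in OE2. In OE1, 3 of the 8 lay above the wildtype mean and 5 below it. Among those below was Ptprc, which encodes CD45, at 1772 and 1958 CPM in wildtype, 372 CPM in OE1 and 1880 CPM in OE2. In bulk RNA, more cells of a type and more RNA per cell cannot be told apart.

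Mitotic genes were higher in OE1 than in every other library, without exception among the 45. Together they took 0.06005% of the assigned reads in WT1, 0.0577% in WT2, 0.571% in OE1 and 0.0713% in OE2. Their summed level was 600.5 and 577.4 CPM in wildtype, 5706 CPM in OE1 and 713 CPM in OE2. The 2 wildtype sums are close to each other, OE2 lies a little above them, and OE1 is 8.75-fold above the wildtype mean after normalisation by size factor. OE2 is 1.22-fold above it. Differences are given on the log2 scale of the deposited values. It was tested with limma's moderated test across all 12617 genes, and a gene was called at a Benjamini-Hochberg adjusted p under 0.05. Against the wildtype pair, 45 of 45 genes were higher in OE1, where 26.8% of all genes tested were called higher and 34.4% lower. Among the 45, Kif18b had enough reads to be tested only through OE1 and OE2. The median difference of the 45 was 3.54, with a range from 0.85 to 5.06, and the median of all genes was -0.15. The difference was over 2 for 39 of the 45 (5.79% of all genes), over 3 for 27 (2.14%) and over 4 for 13 (0.697%). With a single library on one side, the error in this fit comes from the wildtype pair and from limma's estimate across genes, and does not hold the spread between mice with raised Arid5b. With no filter on low values, none of the 45 was called (adjusted p from 0.0543 to 0.236, as for all genes, of which 0 were called), with the median difference at 3.54.

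**Figure D1:**
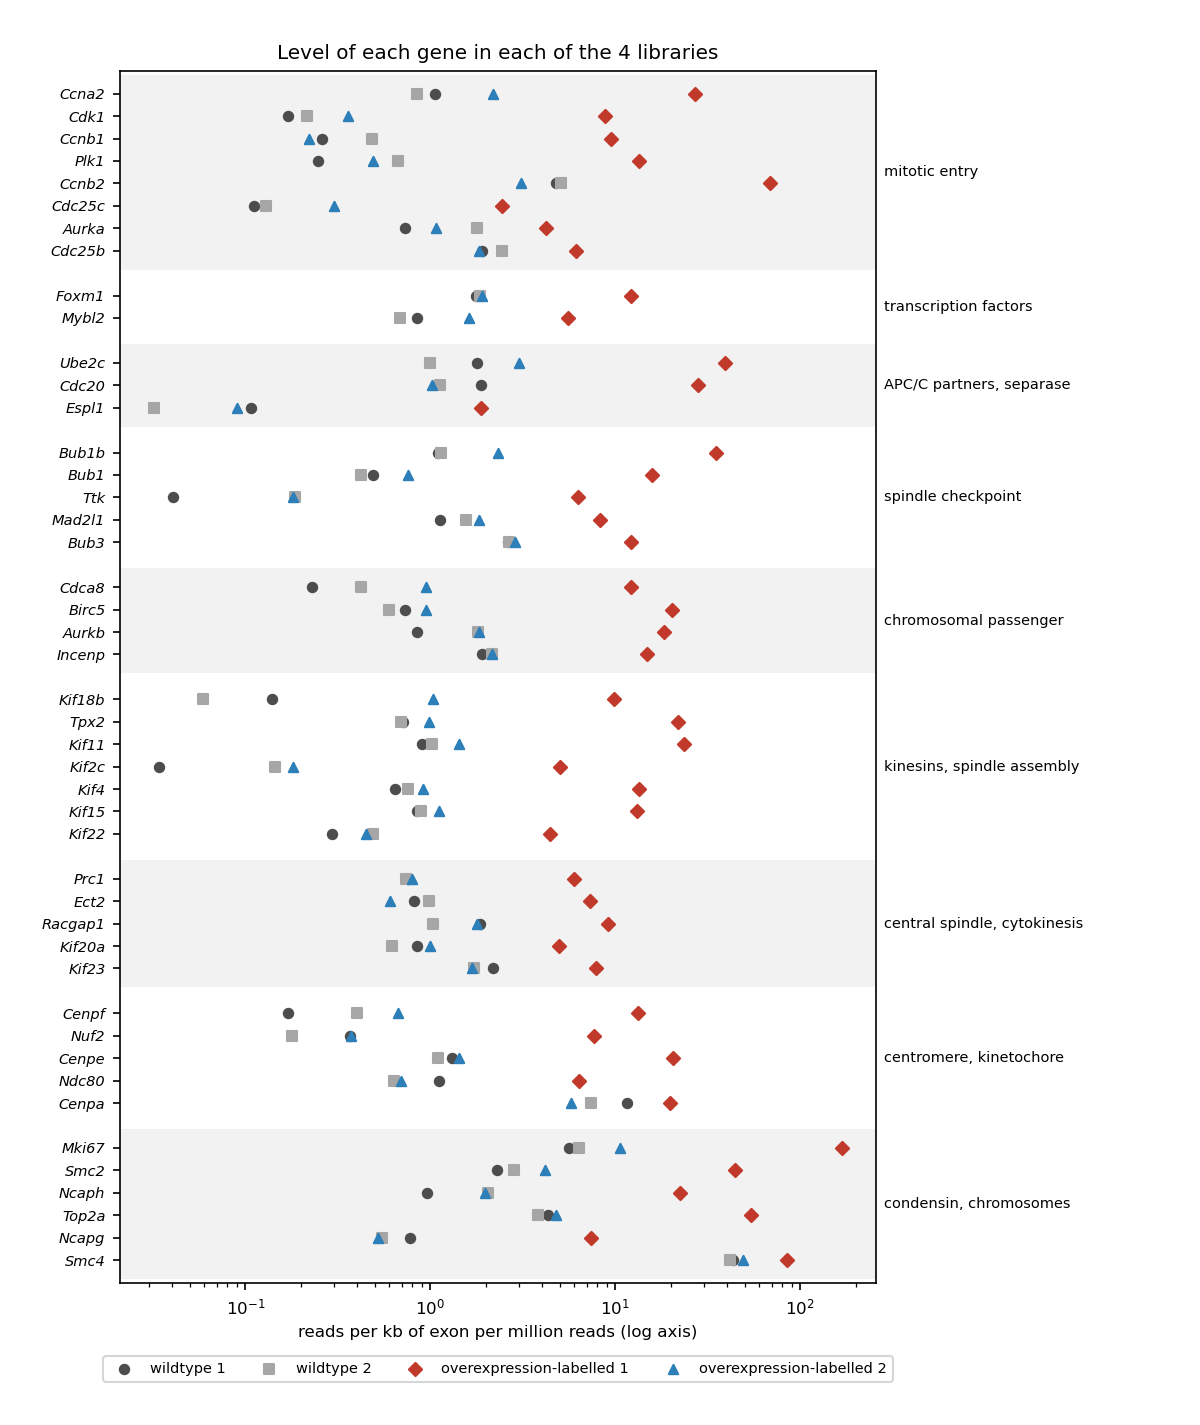
Level of the 45 mitotic genes, grouped by role, in each of the 4 libraries, as CPM per kilobase of exon on a log axis; each point is 1 library. The diamonds of OE1 lie to the right of the other 3 points in every row. The points of OE2 lie above, between or below the wildtype points, with Kif18b in OE2 (1.03) farthest above its wildtype points (0.139 and 0.0592).

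Genes of this kind are known to share promoter elements. The cell cycle genes homology region (CHR) is bound by the MuvB core of complexes that repress genes in resting cells and activate them in G2, and CCAAT boxes are bound by NF-Y. Promoter windows of 300 bases, from 250 before to 50 after the start of a transcript, were taken from RefSeq (GRCm38.p6) for 37 of the 45 genes, with 40 windows in all. A CHR, spelled TTTGAA or TTTAAA on either strand, was found in 85.0% of these windows and in 27.6% of all 32851 windows. A CCAAT on either strand was found in 80.0% against 37.4%, and at least 2 of them in 50% against 11.7%. Both elements occurred together in 75% against 10.7%. A CHR within 50 bases of the start, a window chosen after its position was seen, was found in 75% against 8.28%. An E2F site on either strand was less common, with 20% against 9.57%. It was spelled TTGGCGC, else with the letters TTCGCGC, else as TTCCCGC, or in the form TTGCCGC, and can overlap a CCAAT. These matches describe letters, not binding.

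The stretch of 120 bases before the RefSeq start is shown for 8 of the genes, to let the elements be seen beside the levels given below: mitotic kinases and cyclin B2, the checkpoint target Cdc20, the spindle motor Kif11, the kinetochore gene Ndc80, which has neither element in this stretch, and the chromosome genes Mki67 and Top2a. Each is written 5′ to 3′ on the strand of the gene, and capitals mark a CHR (TTTGAA or TTTAAA) or a CCAAT, either of them also as its reverse complement. In order, the stretches lie at chr10:69352913-69353032 (minus strand), chr9:70421555-70421674 (minus), chr7:122159315-122159434 (plus), chr4:118437344-118437463 (minus), chr19:37376262-37376381 (plus), chr17:71526858-71526977 (minus), chr7:135716380-135716499 (minus) and chr11:99024190-99024309 (minus) of GRCm38.p6.
Cdk1: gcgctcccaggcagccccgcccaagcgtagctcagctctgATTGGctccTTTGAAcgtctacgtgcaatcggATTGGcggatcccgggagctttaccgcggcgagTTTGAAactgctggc
Ccnb2: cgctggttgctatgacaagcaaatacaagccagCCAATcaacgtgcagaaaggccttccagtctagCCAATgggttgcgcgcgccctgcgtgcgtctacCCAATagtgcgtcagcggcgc
Plk1: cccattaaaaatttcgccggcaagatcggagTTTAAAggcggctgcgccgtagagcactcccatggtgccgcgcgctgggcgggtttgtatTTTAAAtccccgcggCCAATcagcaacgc
Cdc20: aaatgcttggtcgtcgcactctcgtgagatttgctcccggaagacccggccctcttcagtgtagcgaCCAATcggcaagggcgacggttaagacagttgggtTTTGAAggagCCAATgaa
Kif11: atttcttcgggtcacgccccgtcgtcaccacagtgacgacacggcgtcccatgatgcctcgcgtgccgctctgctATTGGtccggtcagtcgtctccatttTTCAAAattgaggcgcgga
Ndc80: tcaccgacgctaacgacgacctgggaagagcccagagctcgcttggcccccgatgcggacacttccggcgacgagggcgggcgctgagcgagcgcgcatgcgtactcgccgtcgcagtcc
Mki67: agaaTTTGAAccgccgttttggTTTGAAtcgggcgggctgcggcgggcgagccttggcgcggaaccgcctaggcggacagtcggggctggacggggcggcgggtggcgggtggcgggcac
Top2a: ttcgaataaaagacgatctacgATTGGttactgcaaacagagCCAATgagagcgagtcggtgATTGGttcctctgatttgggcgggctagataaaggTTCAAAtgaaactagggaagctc
Top2a and Ccnb2 each have 3 CCAAT boxes here, Plk1, Cdk1 and Mki67 each have 2 CHR elements, and in Cdk1, Plk1, Cdc20, Kif11 and Top2a both elements stand in the same stretch. The 2 CHR elements of Ndc80 follow the start, at bases 23 and 30.

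**Figure D2:**
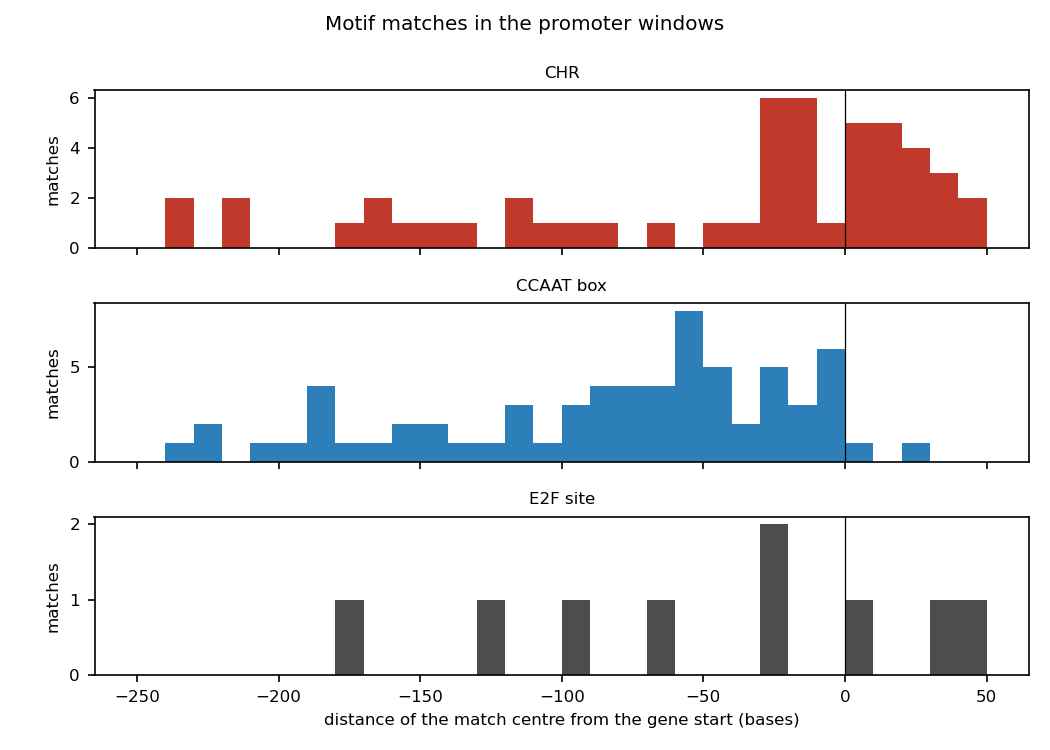
Number of motif matches (y axis) by distance of the match centre from the transcript start in bases (x axis, bins of 10 bases) in the 40 promoter windows of the mitotic genes. CHR matches are most numerous near the start on both sides, and CCAAT boxes lie mostly before it.

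Cyclins, kinases and phosphatases of mitotic entry were higher in OE1 in 8 of 8 cases. Their summed level was 23.6 and 30.1 CPM in wildtype, 375 CPM in OE1 and 28.4 CPM in OE2, and the median difference in OE1 was 3.54. Cdk1 (ENSMUSG00000019942.13, chr10:69335146-69352938, minus strand, GRCm38), the kinase whose activity defines mitosis, stood at 0.844 and 1.06 CPM in wildtype, 43.6 CPM in OE1 and 1.77 CPM in OE2. It was barely read outside OE1, with 17, 15 and 36 reads against 666, and the few wildtype reads limit the precision of its fold. The rise was 41.5-fold (difference 4.20, SE 0.349, adjusted p = 3.01e-07). Ccna2, cyclin A2, which acts from S phase to early mitosis, stood at 4.32 and 3.45 CPM in wildtype, 111 CPM in OE1 and 8.94 CPM in OE2. For both genes the OE2 value was also above both wildtype values, but neither passed the test there (adjusted p = 0.607 for Cdk1 and 0.178 for Ccna2).

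The B cyclins, partners of Cdk1, had another order among the libraries. Ccnb1 stood at 1.09 and 2.04 CPM in wildtype, 39.8 CPM in OE1 and 0.933 CPM in OE2. Ccnb2 stood at 7.35 and 7.82 CPM in wildtype, 105 CPM in OE1 and 4.72 CPM in OE2. OE1 is high, and OE2 is the lowest library for both, so that the labelled groups overlap. The difference in OE2 was -0.36 for Ccnb1 and -0.54 for Ccnb2, and neither passed the test (adjusted p = 0.731 and 0.428). Plk1, the polo-like kinase of centrosomes and kinetochores, rose 26.6-fold in OE1, from 0.546 and 1.48 CPM to 29.6 CPM, with 1.08 CPM in OE2 between the wildtype values. Cdc25c, a phosphatase that activates Cdk1, rose 18.35-fold in OE1.

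The smallest rises of this group were those of Aurka and Cdc25b. Aurka, the kinase of spindle poles, stood at 1.84 and 4.51 CPM in wildtype, 10.7 CPM in OE1 and 2.70 CPM in OE2, a 3.07-fold rise in OE1 (difference 1.36, SE 0.403, adjusted p = 0.0103, the largest adjusted p among the 45). Cdc25b, the phosphatase thought to start Cdk1 activation, rose 2.545-fold, from 7.10 and 9.09 CPM to 22.8 CPM. The wildtype libraries lay more than 2-fold apart for Aurka, and it and Cenpa lost their call in OE1 when genes were filtered on a mean of at least 10 reads.

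Transcription factors of the G2/M programme rose as well, 2 of 2. Foxm1, a forkhead factor that activates mitotic genes, stood at 10.1 and 10.6 CPM in wildtype, 69.6 CPM in OE1 and 10.95 CPM in OE2. OE2 lies at the wildtype level, and the rise in OE1 was 6.05-fold (difference 2.44, SE 0.226, adjusted p = 8.85e-07). Mybl2, a MYB family factor that joins the MuvB complex, stood at 3.92 and 3.17 CPM in wildtype, 25.65 CPM in OE1 and 7.47 CPM in OE2. Mybl2 was thus above both wildtype libraries in OE2 too, where its difference of 0.86 did not pass the test (adjusted p = 0.243).

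Partners of the anaphase promoting complex and separase rose in 3 of 3 cases. Ube2c, the ubiquitin-conjugating enzyme that works with the complex, stood at 4.67 and 2.61 CPM in wildtype, 102 CPM in OE1 and 7.86 CPM in OE2. Cdc20, the activator of the complex that the checkpoint restrains, stood at 3.52 and 2.11 CPM in wildtype, 52.2 CPM in OE1 and 1.92 CPM in OE2. Ube2c was 25.2-fold and Cdc20 16.7-fold above wildtype in OE1, while in OE2 Ube2c was the higher and Cdc20 the lower of the libraries outside OE1. Espl1, separase, which cuts cohesin, had 19 and 4 reads in wildtype, 251 in OE1 and 16 in OE2, a 24.1-fold rise in OE1. Its inhibitor securin, Pttg1, was not among the genes that rose, at 28.4 and 29.1 CPM in wildtype, 33.8 CPM in OE1 and 23.4 CPM in OE2 (difference in OE1 0.08, adjusted p = 0.735). Per length of exon, the level of Espl1 was 0.00759 and 0.00221 of that of Pttg1 in wildtype, 0.111 in OE1 and 0.00768 in OE2.

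Spindle assembly checkpoint genes were higher in OE1 in 5 of 5 cases, with a median difference of 4.14. Bub1b, which encodes BubR1 of the mitotic checkpoint complex, stood at 4.72 and 4.86 CPM in wildtype, 150 CPM in OE1 and 9.92 CPM in OE2. Bub1, a kinase of the outer kinetochore, stood at 2.13 and 1.83 CPM in wildtype, 68.8 CPM in OE1 and 3.29 CPM in OE2. Both genes were about level between the wildtype libraries, highest in OE1 (28.4-fold and 31.3-fold) and intermediate in OE2. Ttk, the kinase Mps1 that starts checkpoint signalling, had 4 and 13 reads in wildtype, 473 in OE1 and 18 in OE2. Its 50.5-fold rise in OE1 was the largest of the 43 genes for which a fold was computed (chr9:83834689-83872389, plus strand; difference 4.14, SE 0.415, adjusted p = 1.88e-06). Bub3 and Mad2l1 had higher levels in wildtype and smaller rises. Bub3, a partner of Bub1 and BubR1, rose 4.14-fold from 18.3 and 18.7 CPM, and Mad2l1, the Mad2 protein that inhibits Cdc20, rose 5.59-fold from 9.43 and 13.1 CPM.

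The chromosomal passenger complex, which corrects faulty attachments and later acts in cytokinesis, was higher in OE1 in 4 of 4 genes. Cdca8, the subunit Borealin, stood at 1.19 and 2.18 CPM in wildtype, 63.15 CPM in OE1 and 4.91 CPM in OE2. Birc5, the subunit Survivin, stood at 2.48 and 2.04 CPM in wildtype, 68.8 CPM in OE1 and 3.24 CPM in OE2. Aurkb, the kinase of the complex, stood at 2.48 and 5.35 CPM in wildtype, 54.2 CPM in OE1 and 5.40 CPM in OE2. In OE1 the rise was 33.9-fold for Cdca8, 27.45-fold for Birc5 and 12.5-fold for Aurkb. Incenp, the scaffold of the complex, had the highest wildtype level of the 4 by CPM (8.24 and 9.37 CPM) and the smallest rise, 6.64-fold. In all 4 genes both OE values lay above both wildtype values, as in 19.6% of all genes tested. Incenp in OE2 (9.38 CPM) was hardly apart from WT2 (9.37 CPM). As OE1 was the highest library for each, the position of OE2 alone decides this.

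Kinesins and spindle assembly factors were higher in OE1 in 7 of 7 cases, and their summed level rose 19.6-fold. Kif18b, a motor that shortens astral microtubules, had 10 and 3 reads in wildtype, 538 in OE1 and 75 in OE2. It had enough reads to be tested only through OE1 and OE2. Its reads in OE1 over both wildtype libraries gave a ratio of 83.8 after normalisation (95% interval for counting error 48.6 to 158). Kif2c, the microtubule depolymerase MCAK, had 3 and 9 reads in wildtype, 334 in OE1 and 16 in OE2, a ratio of 56.4 (31.9 to 110). With so few wildtype reads, no fold of single libraries was computed for these 2 genes.

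Kif11, the Eg5 motor that pushes spindle poles apart, was more deeply read. It stood at 6.70 and 7.61 CPM in wildtype, 176 CPM in OE1 and 10.7 CPM in OE2 (chr19:37376403-37421859, plus strand; 22.3-fold in OE1, difference 4.22, SE 0.221, adjusted p = 3.21e-09). Tpx2, which activates Aurka and nucleates microtubules, stood at 3.33 and 3.24 CPM in wildtype, 102.5 CPM in OE1 and 4.62 CPM in OE2. The wildtype values are close to each other for both genes, and OE2 lies above them without passing the test (adjusted p = 0.425 and 0.650). Kif15, a motor that can share the work of Kif11, rose 13.7-fold and the chromokinesins Kif4 and Kif22 rose 17.2-fold and 10.3-fold in OE1. Kif4 lies on the X chromosome, and WT1 and WT2, which differ in Xist, stood at 3.57 and 4.16 CPM of it.

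Centromere and kinetochore genes spanned the widest range of differences in OE1, from 0.94 to 5.06, with 5 of 5 higher. Cenpf (ENSMUSG00000026605.14, chr1:189640606-189688086, minus strand), a large protein of the outer kinetochore, stood at 2.63 and 6.20 CPM in wildtype, 204 CPM in OE1 and 10.3 CPM in OE2. Its difference of 5.06 in OE1 was the largest of the 45 (41.9-fold, SE 0.321, adjusted p = 2.04e-08). Cenpe, the kinetochore motor that brings chromosomes to the spindle equator, stood at 11.3 and 9.51 CPM in wildtype, 178 CPM in OE1 and 12.4 CPM in OE2. Nuf2 and Ndc80 encode partners in the complex that holds microtubules, and their rises differed in size. Nuf2 stood at 2.33 and 1.13 CPM in wildtype, 48.8 CPM in OE1 and 2.36 CPM in OE2, 25.4-fold higher in OE1. Ndc80 stood at 7.25 and 4.16 CPM in wildtype, 41.1 CPM in OE1 and 4.52 CPM in OE2, 6.49-fold higher in OE1. The difference between these folds was not tested.

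Cenpa (ENSMUSG00000029177.9, chr5:30666777-30674830, plus strand), the histone H3 variant of centromeres, changed least among these 5. It stood at 67.7 and 43.3 CPM in wildtype, 117 CPM in OE1 and 33.9 CPM in OE2. OE1 is the highest and OE2 the lowest library. The rise in OE1 was 1.89-fold (difference 0.94, SE 0.222, adjusted p = 0.00252), and the difference of -0.64 in OE2, the lowest of the 45, did not pass the test (adjusted p = 0.215).

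Condensin and mitotic chromosome genes held most of the reads of the 45 in wildtype. Mki67 (ENSMUSG00000031004.8, chr7:135689784-135716361, minus strand) encodes Ki-67, a coat protein of mitotic chromosomes used as a marker of dividing cells. It stood at 56.4 and 63.8 CPM in wildtype, 1685 CPM in OE1 and 107 CPM in OE2. All 4 values are based on many reads (1137, 906, 25752 and 2185), both OE libraries lie above both wildtype libraries, and the rise was 25.3-fold in OE1 (difference 4.63, SE 0.135, adjusted p = 1.55e-11) and 1.80-fold in OE2. Top2a, the topoisomerase that untangles sister chromatids, stood at 39.2 and 34.7 CPM in wildtype, 489 CPM in OE1 and 42.9 CPM in OE2, a 12.0-fold rise in OE1.

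Smc2 and Smc4 are the paired ATPase subunits of condensin, and their rises in OE1 were unequal. Smc2 stood at 12.6 and 15.5 CPM in wildtype, 243 CPM in OE1 and 22.8 CPM in OE2. Smc4 (chr3:69004738-69034623, plus strand) stood at 226 and 216 CPM in wildtype, 443 CPM in OE1 and 255 CPM in OE2. Smc4 was already abundant in wildtype and rose 1.81-fold in OE1, the smallest rise of the 45 (difference 0.85, SE 0.126, adjusted p = 6.35e-05), against 15.6-fold for Smc2. Per length of exon, the level of Smc2 was 0.0531 and 0.0682 of that of Smc4 in wildtype, 0.521 in OE1 and 0.0850 in OE2. Of the subunits specific to condensin I, Ncaph rose 13.5-fold and Ncapg 10.1-fold in OE1. In OE2 Ncaph lay between the wildtype values (8.50 CPM against 4.12 and 8.80 CPM) and Ncapg below both (3.68 CPM against 5.51 and 3.87 CPM).

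Central spindle and cytokinesis genes had the smallest summed fold of the 9 roles in OE1, 5.36-fold, with 5 of 5 higher and a median difference of 2.39. Prc1, which bundles the microtubules of the central spindle, stood at 6.20 and 6.06 CPM in wildtype, 49.3 CPM in OE1 and 6.58 CPM in OE2. Ect2, the exchange factor that activates RhoA for the contractile ring, stood at 4.42 and 5.28 CPM in wildtype, 39.3 CPM in OE1 and 3.24 CPM in OE2. Prc1 and Ect2 rose by 7.27-fold and 7.33-fold, with OE2 at the wildtype level for Prc1 and below it for Ect2. Kif23 and Racgap1 together form centralspindlin and rose 3.62-fold and 5.655-fold in OE1, and Kif20a, a motor of the central spindle whose exons overlap those of Cdc23, rose 6.13-fold. In OE2 the summed level of these 5 genes was 1.02-fold that of wildtype.

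**Figure D3:**
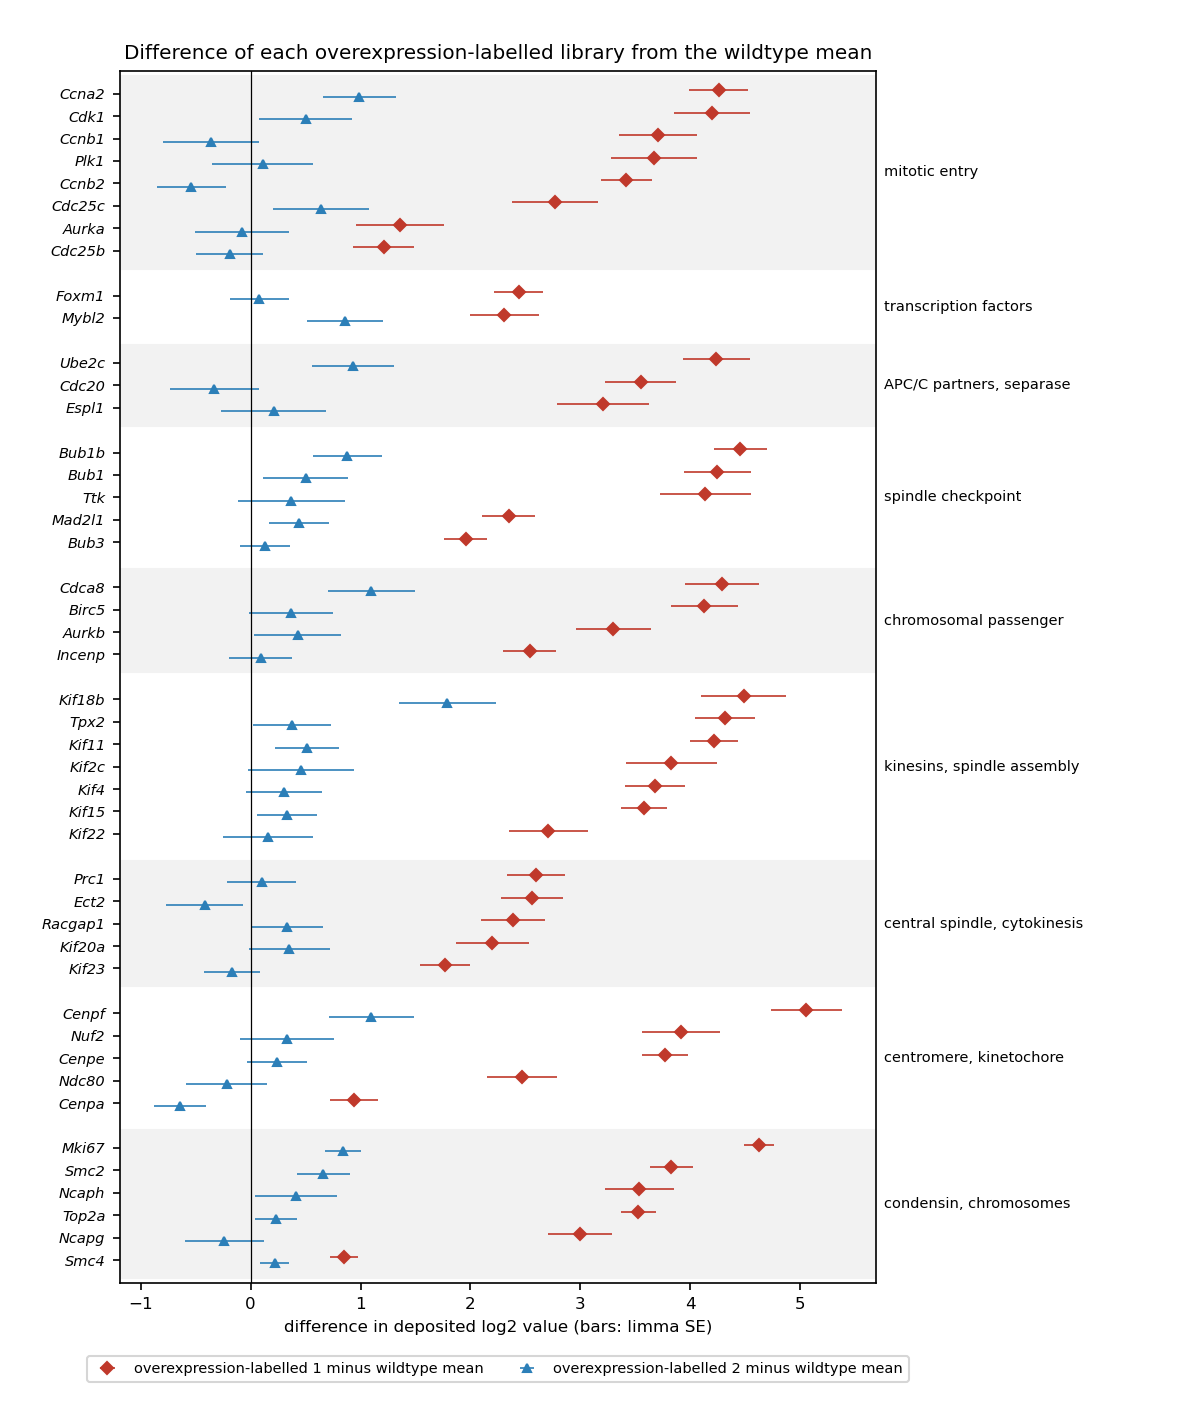
Difference of OE1 (diamonds) and OE2 (triangles) from the wildtype mean on the deposited log2 scale for each of the 45 genes, with limma's standard error as bars. All diamonds lie between 0.85 and 5.06, and the triangles lie between -0.64 and 1.79, on both sides of 0.

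In OE2, which had no raised Arid5b, 1 of the 45 genes was called higher and 0 lower than wildtype, where 0.769% of all genes were called higher and 0.888% lower. That gene was Mki67 (difference 0.84, SE 0.161, adjusted p = 0.0246). The median difference of the 45 in OE2 was 0.33, and that of all genes was 0.01. The difference was above 0 for 35 of the 45 and for 51.5% of all genes. Kif18b had the largest difference in OE2, 1.79 (SE 0.441), and missed the threshold (adjusted p = 0.0698). Kif18b passed the filter on low values only through OE1 and OE2. Its 10 and 3 reads in wildtype, scaled to the median library size, lay under that filter. On the deposited scale, 29 of the 45 genes were higher in OE2 than in both wildtype libraries, 9 lay between them and 7 lay below both. Those below were Ccnb1, Ccnb2, Cdc20, Cdc25b, Cenpa, Ncapg and Ect2. The shares of all genes in these positions were not counted for OE2 alone. The calls in OE2 rested on the setting. With limma-voom on recovered reads Cenpf and Kif18b were called besides Mki67, and with library totals Kif18b and Mki67 were called. Under 5 other settings none of the 45 was called. With no filter on low values or a filter on a mean of at least 10 reads, none of all genes was called either. Limma-voom and library totals called more of all genes than the main fit.

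OE1 was also set against OE2 directly, in a fit of both libraries with the wildtype pair. All 45 genes were higher in OE1, where 22.4% of all genes were called higher and 30.1% lower. The median difference was 3.19, from 0.63 for Smc4 to 4.07 for Ccnb1. Each side is 1 library and the error again comes from the wildtype pair and limma's estimate across genes, so these calls compare the 2 libraries and not conditions. With no filter on low values, 18 of the 45 were called. That setting called smaller shares of all genes too, and the median difference of the 45 stayed at 3.19. In the main fit Ccnb1 leads because its OE2 level lay below wildtype. This comparison and the 2 above share libraries, so their values are not independent.

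Taken as labelled, with both overexpression-labelled libraries against both wildtype libraries, 0 of the 45 genes were called, as were 0.0% of all genes. The smallest adjusted p over all genes was 0.726. At an unadjusted p under 0.05, limma passed 280 of all genes and 1 of the 45, Kif18b, while limma-voom called none and passed 186 of all genes and 0 of the 45. Kif18b had passed the filter on low values only through OE1 and OE2. The deposited log2 value of Mki67 averaged 11.25 in the wildtype pair, with an SD of 0.10 over n = 2, and 13.99 with an SD of 2.68 over n = 2 libraries labelled as overexpressing, a difference of 2.73 with an SE of 1.30. That of Cenpa was 11.11 ± 0.47 in wildtype and 11.26 ± 1.11 in the labelled group. The SD within the labelled group was larger than the difference between the groups for 33 of the 45 genes. With n = 2 this follows wherever only OE1 departs from wildtype, and the share of all genes was not counted. The median difference was 1.86, and it was 0.33 without OE1 and 3.54 without OE2. Both OE values lay above both wildtype values for 29 of the 45 genes and below for 0, and among all genes for 19.6% and 23.0%. As OE1 was the highest library for all 45, these 29 are the genes with OE2 above both wildtype libraries.

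Per length of exon, the median level of the 45 genes was 0.847 and 0.889 in wildtype (CPM per kilobase of exon), 12.2 in OE1 and 1.07 in OE2. Smc4 was the highest of them in WT1, WT2 and OE2, at 43.3, 41.5 and 49.0, and Mki67 in OE1, at 168. Espl1 was the lowest in WT2, OE1 and OE2, and Kif2c in WT1. Mki67, Top2a and Smc4 together made up 53.5% and 54.5% of the reads of the 45 genes in wildtype, 45.9% in OE1 and 56.8% in OE2. The wildtype libraries themselves differed little over these genes, with a median difference between WT1 and WT2 of -0.03 (from -0.90 to 0.76), 20 genes higher in WT1 and 25 in WT2. In 10 of the 45 the wildtype CPM lay more than 2-fold apart, among them Espl1, Ttk and Kif2c, which had fewer than 20 reads in each wildtype library. The median gene of the 45 had 87 reads in WT1, 64 in WT2, 983 in OE1 and 110 in OE2.

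Other genes of mitosis were examined by list, beside the 26.8% of all genes called higher and 34.4% called lower in OE1. Among other genes of the spindle, centrosome and cytokinesis, 21 of 24 tested were higher in OE1, 0 lower and 3 not called, with a median difference of 2.56. Hmmr, a microtubule-binding protein of spindle poles, stood at 1.19 and 1.76 CPM in wildtype, 97.4 CPM in OE1 and 4.76 CPM in OE2 (difference in OE1 5.0, SE 0.314, adjusted p = 1.86e-08). Gtse1, a microtubule-associated protein of G2, had a difference of 4.52. Among other kinetochore genes, 25 of 33 were higher, 2 lower and 6 not called, with a median of 1.23. The largest rises were those of Cenph of the inner kinetochore (3.59) and Kntc1 of the complex that brings dynein to kinetochores (3.39). The falls were those of Zwint, which links that complex to the kinetochore (47.0 and 49.3 CPM in wildtype and 33.2 CPM in OE1, difference -0.65), and Oip5, a factor of Cenpa loading (-1.05).

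Among other condensin and cohesin genes, 13 of 16 were higher, 0 lower and 3 not called, with a median of 1.51. Cdca5, sororin, which protects cohesin (3.36), and Ncapg2 of condensin II (3.20) led them. Among other mitotic regulators, 12 of 21 were higher, 2 lower and 7 not called, with a median of 0.94. Cks1b, a small partner of Cdk1 (3.95), and the kinase Pbk (3.84) rose most, and Lin54, the subunit of MuvB that binds the CHR (-1.56), and Wee1, the kinase that inhibits Cdk1 (-0.86), fell. Among other genes of the anaphase promoting complex and its cofactors, 7 of 17 were higher, 0 lower and 10 not called, with a median of 0.07, where the median of all genes was -0.15. Fbxo5, an inhibitor of the complex (2.76), and the subunit Cdc26 (1.37) rose most.

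Kinesins and kinesin partners known mostly for transport in interphase cells were set beside the mitotic ones. The list also holds Kif2a, a microtubule depolymerase related to Kif2c that acts at spindle poles too. Of 16 tested among 21 listed, 3 were higher in OE1, 4 lower and 9 not called, with a median difference of 0.03; among all genes 26.8% were higher and 34.4% lower. Kifap3 (2.05) and Kif2a (1.49) rose most. Kif13a stood at 5.66 and 5.92 CPM in wildtype, 0 reads in OE1 and 8.06 CPM in OE2, and Kif1b fell by 1.53. The summed CPM of the 21 genes was 636 in WT1, 636 in WT2, 696 in OE1 and 617 in OE2. In OE2, no gene of these 6 lists was called in either direction. Their median differences there lay from -0.12 to 0.36, where the median of all genes was 0.01.

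**Figure D4:**
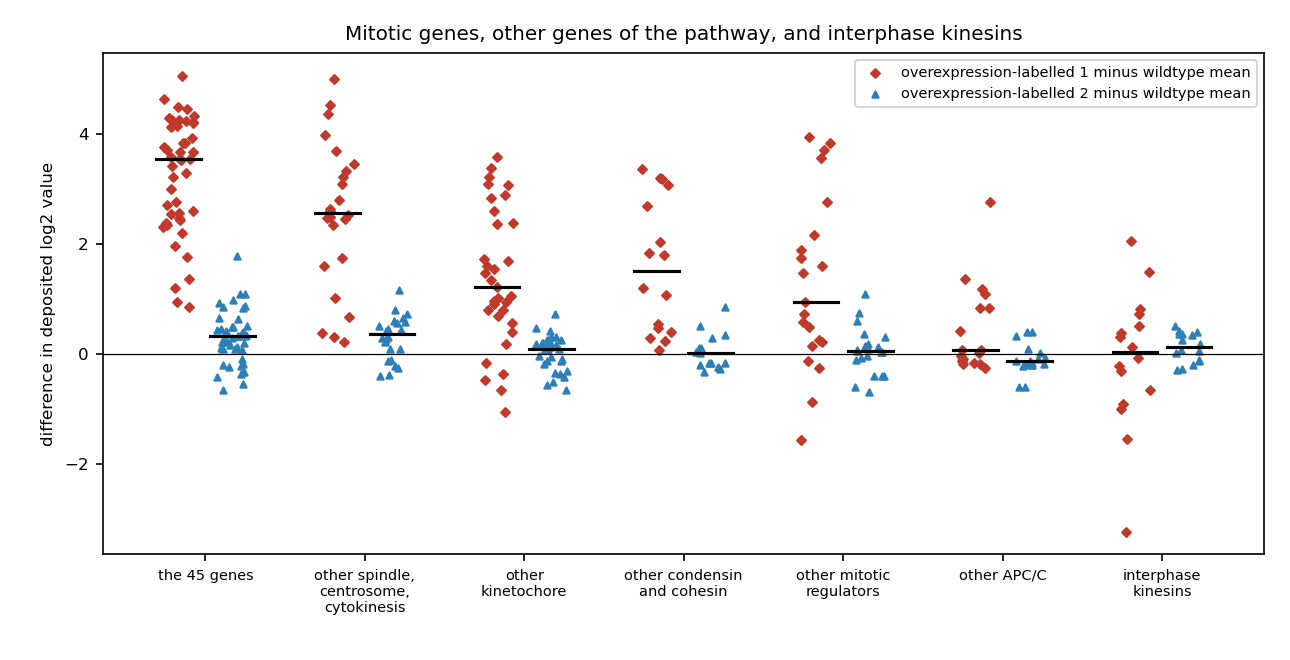
Differences from the wildtype mean on the deposited log2 scale in OE1 (diamonds) and OE2 (triangles) for the 45 mitotic genes, 5 lists of other mitotic genes and a list of interphase kinesins that includes Kif2a; each point is 1 gene tested and bars are medians. The median in OE1 is 3.54 for the 45 genes, from 0.07 to 2.56 for the lists of other mitotic genes and 0.03 for interphase kinesins.

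Markers of B cell stages differed between the same libraries. The 10 markers of pro-B and early pre-B cells summed to 36.7 and 23.8 CPM in wildtype, 5088 CPM in OE1 and 8.94 CPM in OE2. The sum in OE1 was led by Igll1 (2362 CPM) and Vpreb1 (639 CPM), the surrogate light chain genes, which had 0 reads in the other 3 libraries. Of the 5 markers tested, 4 lay above the wildtype mean in OE1. Dntt, which adds bases at V(D)J junctions, lay below it without being called (difference in OE1 -0.71). It had 23 and 10 reads in wildtype, 4 in OE1 and 22 in OE2. The 10 markers of mature B cells summed to 20770 and 21680 CPM in wildtype, 586 CPM in OE1 and 19480 CPM in OE2. In OE1, 9 of the 10 lay below the wildtype mean, where the median difference of all genes was -0.15. Cd74, the invariant chain of MHC class II, fell from 10220 and 11000 CPM to 91.1 CPM, and H2-Aa from 7796 and 7444 CPM to 45.3 CPM. Thus the library with the high mitotic genes is also the library with the high sum of early markers and the low sum of mature markers. With 1 such library, the part of raised Arid5b and that of B cell stage in the mitotic values cannot be told apart.

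Markers of other cell types were counted as well. The 10 neutrophil markers summed to 7.15 and 99.8 CPM in wildtype, 132 CPM in OE1 and 1446 CPM in OE2. All 8 tested lay above the wildtype mean in OE2, as did 51.5% of all genes tested. S100a9 (422 CPM) and Ngp (390 CPM) led the sum in OE2. Elane and Prtn3, granule genes of dividing neutrophil precursors, stood at 4.57 and 3.78 CPM in OE2, at 0.0654 and 0 CPM in OE1, and at 0.0496 CPM or 0 in wildtype. The part of these cells in the values of OE2 was not tested. The 8 monocyte markers summed to 92 and 114 CPM in wildtype, 72.6 CPM in OE1 and 309 CPM in OE2. The sum in OE2 was mostly Lyz2 (199 CPM) and Ms4a6c (90.4 CPM), with 5 of the 8 above the wildtype mean and 3 below it. In OE1, where F13a1 stood at 37.6 CPM, 2 of the 8 lay above the wildtype mean and 6 below it. The 8 erythroid markers summed to between 5.14 and 6.48 CPM in the 4 libraries, with the globin genes Hba-a1 and Hbb-bt at 0 reads in all 4. The 8 T and NK cell markers summed to 54.7 and 50.8 CPM in wildtype, 2.49 CPM in OE1 and 24.9 CPM in OE2. The 8 plasma cell markers summed to between 1430 and 1705 CPM, mostly Irf4 and Slamf7, while of 7 tested 3 lay above and 4 below the wildtype mean in OE1. Among them Jchain fell from 124 and 140.5 CPM to 3.27 CPM and Sdc1 rose from 1.04 and 4.085 CPM to 26.2 CPM. The 8 markers of plasmacytoid dendritic cells summed to 856 and 791 CPM in wildtype, 203 CPM in OE1 and 839 CPM in OE2.

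**Figure D5:**
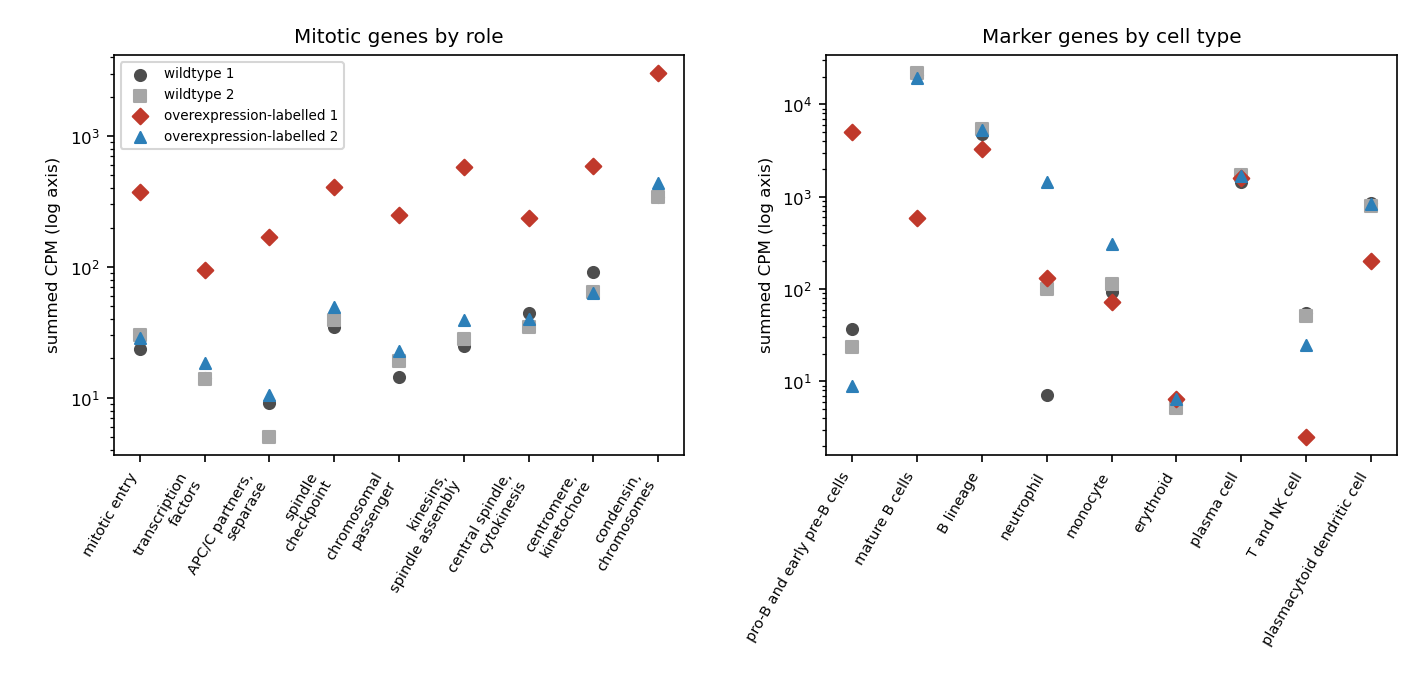
Summed CPM (log axis) of the mitotic genes by role (left) and of marker genes by cell type (right), 1 point a library. OE1 is the highest library for all 9 mitotic roles and for the early B cell markers (5088 CPM), and the lowest for the mature B cell markers (586 CPM).

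Of the 45 genes, 9 share exon bases with a gene on the opposite strand: Ccna2, Cdc20, Cdc25b, Cdca8, Kif20a, Kif4, Ncapg, Prc1 and Ube2c. Whether reads were assigned by strand is not given in the sources used here, so the effect of the shared bases on these counts was not determined. The longest overlap, 1271 bases, is that of Kif20a with Cdc23. Cdc23 had 246, 165, 488 and 229 reads in WT1, WT2, OE1 and OE2, against 74, 38, 330 and 88 for Kif20a, and was itself 2.42-fold higher in OE1. Exosc9, the partner of Ccna2, had 428, 334, 292 and 241 reads, against 87, 49, 1691 and 182 for Ccna2. The partner of Ube2c, Tnnc2, had at most 5 reads in any library, and that of Cdca8, 9930104L06Rik, had at most 62. The partner of Ncapg, Lcorl, had 981, 666, 591 and 896 reads in WT1, WT2, OE1 and OE2, against 111, 55, 801 and 75 for Ncapg.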

How the data were processed

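Each library used 1 ug of RNA, per the labels' protocols, and the submitters' processing notes name STAR, HTSeq, DESeq2 and the build mm10, without versions. The deposited log2 values share a floor of 4.949 at 0 reads and have the form of a variance stabilizing transformation. Inverting it gave whole reads for 100% of the values within 0.01. CPM, read numbers and folds come from these recovered reads, and levels per length use the exons of GENCODE M21 (GRCm38). Genes passing a filter of 10 reads, scaled to the median library size, in 2 libraries and 15 reads in all were tested with limma-trend (limma 3.58.1, R 4.3.3) on the deposited log2 values, two-sided. The labels give no batch, and no covariate entered. On this scale low genes show too small a change. A count test had been planned for deposited counts. The fits were also run on counts simulated around the wildtype means with a fixed spread set in advance. Those runs do not show how the fits behave under the spread between mice. The 45 genes, the lists and the rule for named genes (all 45, the 2 largest rises and falls past the threshold of each other list, Arid5b, the 2 most abundant of a marker list) were chosen with earlier results of these data known. Elane, Prtn3, Pttg1, Dntt, Jchain, Sdc1, globin genes and overlapping genes were named after their values were seen. Wildtype library 2 has a misspelled genotype label, and the column header of OE1 differs in 1 digit from its sample's title. Alternatives were other filters, pseudocounts of 0.5 and 5, scalings, limma-voom, a robust prior and leaving out each library.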

Additional observations from a re-analysis of the deposited data

How the results depend on the processing

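The rise of the 45 mitotic genes in OE1 was called for 45 of 45 genes with pseudocounts of 0.5 and 5, limma-voom, TMM, library totals, library totals without Rn45s and a robust prior. A filter of at least 5 CPM in 2 libraries kept 28 of the 45, all higher in OE1 than in wildtype and OE2. Among these, Ccna2, Bub1b, Mybl2, Ube2c and Kif4 lay under 5 CPM in both wildtype libraries. They passed only through OE1 and OE2, so their rise in OE1 is partly set by the filter. Kif18b passed the filter of the main fit in the same way. No filter on low values called 0 in OE1, 0 in OE2 and 18 in OE1 against OE2, and the cause was not tested. A filter on a mean of at least 10 reads, chosen after seeing the data, called 43 in OE1 and 0 in OE2. In OE2, 0 were called with a pseudocount of 0.5, TMM or library totals without Rn45s, 3 with limma-voom and 2 with library totals. Calls over all genes moved as well. With no filter, none of all genes was called in OE1 or OE2, and smaller shares were in OE1 against OE2. In OE2, the filter on the mean called none of all genes. A pseudocount of 0.5, TMM and library totals without Rn45s called fewer there than the main fit, and limma-voom and library totals more. The median difference in OE1 was 3.15 under the 5 CPM filter, 3.95 and 3.94 with the pseudocounts, 3.93 with limma-voom, 3.61 with TMM, 3.68 with library totals and 3.73 without Rn45s. In the same order, that of OE1 against OE2 was 3.05, 3.43, 3.39, 3.43, 3.25, 3.34 and 3.38. In OE2 it was 0.27 under the 5 CPM filter, 0.48 and 0.46 with the pseudocounts and 0.44 with limma-voom. The median of all genes in OE1 moved from -0.15 to 0.02 with library totals without Rn45s. Leaving out a wildtype library put the median at 3.46 to 3.59 in OE1 and 0.27 to 0.35 in OE2. For the labelled groups, leaving out 1 library gave 0 to 45 called genes and medians from 0.33 to 3.54. The differences between labelled groups that changed sign in these fits had lowest and highest values of -0.36 and 3.71 (Ccnb1), -0.54 and 3.42 (Ccnb2), -0.19 and 1.21 (Cdc25b), -0.08 and 1.36 (Aurka), -0.33 and 3.55 (Cdc20), -0.64 and 0.94 (Cenpa), -0.22 and 2.47 (Ndc80), -0.24 and 3.0 (Ncapg), -0.17 and 1.77 (Kif23) and -0.42 and 2.56 (Ect2). The lowest value came without OE1 in each, and without WT2 Cenpa stood at -0.18. No paired analysis was possible because the labels number no replicates; the numbers used here follow accession order and only name the libraries. Read numbers limit the folds of Cdk1, Cdc25c, Ttk, Kif2c, Kif18b and Espl1, with at most 19 reads in each wildtype library, and of Plk1 and Nuf2, with 11 and 16 reads in 1 of them.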
